A study of Caenorhabditis elegans with 8 samples.

Results

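The genes described here encode candidate chemoreceptors of the Sra superfamily (families sra, srab, srb and sre) and the Srg superfamily (families srg, srt, sru, srv, srx and srxa). Members were found by gene symbol, through the target name of each probe, and a gene was kept where the scanner software rated a probe well above background on every array of N2, of the mutant, or of both. Of 505 such genes with a probe on the array, 66 met that rule (13.1%) and are called measured below. RNA came from whole hermaphrodite Caenorhabditis elegans, picked as sleeping L4 larvae, the last larval stage. There were 4 samples of the wild-type strain N2 and 4 samples of aptf-1(gk794), each a pool of 200 animals and each hybridized to 1 single-color Agilent array. The deleted gene, aptf-1, is a transcription factor of the AP2 type needed in the sleep-inducing neuron RIS. No other treatment is given for either group. The mutation is present in all cells, and these larvae lack the immobility that marks sleep, so genotype and sleep behavior cannot be told apart.

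Nematode chemoreceptors are G protein-coupled receptors that span the membrane several times. Most that have been studied are made in a few sensory neurons of the head or tail and sit in the cilia of those cells, where odors, tastants or pheromones reach them. There they act through G proteins, cyclic GMP and ion channels of the TAX-2/TAX-4 or OSM-9/OCR-2 type. The families named sr grew by gene duplication, many members lie in clusters on chromosome V, and a sizeable share are pseudogenes. Since each gene is typically active in a handful of cells, its RNA is a very small part of the RNA of a whole larva. In RNA of whole animals, fewer cells of a type and less RNA per cell cannot be told apart.

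Each array held 43603 different probes besides controls. The share of spots well above background was 72.2% to 79.7%, with 0 saturated spots. The 75th percentile of the signal, to which levels below are relative on a log2 scale, lay between 316 and 839, with the lowest value on N2 replicate 1. A level of 0 is thus the brightness of the 75th percentile of an array, and negative levels are dimmer. The arrays lay on 2 slides of 4, N2 at positions 1 and 2 and the mutant at positions 3 and 4 of each, so that genotype and position cannot be told apart. The first component of all genes held 33.4% of the variation, from -32.1 on N2 replicate 1 to 51.1 on aptf-1(gk794) replicate 4. The single aptf-1 probe was dim and went against 1 label: its highest level, -4.29, was on the library labelled aptf-1(gk794) replicate 3. The sleep neuropeptide gene flp-11 was lower on every mutant array, with levels of 0.45 to 0.60 on the N2 arrays and -0.71 to -0.64 on the mutant arrays, with -0.69 on that library. Groups were kept as labelled.

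Most of these receptor genes could not be seen in whole larvae. Of the 505 genes, 303 had a probe well above background on none of the 8 arrays, 136 had one on some arrays but did not meet the rule, and 37 of the 66 measured genes stood above it on all 8. Of the 668 probes of these genes 11.5% met the rule, against 73.4% of all 43603 probes. The srx family, the most numerous, had 17 measured genes of 133, followed by srg with 9 of 68, sra with 7 of 38 and sre with 7 of 56. srt and srv had 6 measured genes each, of 65 and 33. srab, sru and srxa had 4 each, of 27, 48 and 19, and srb had 2 of 18. Of the measured genes, 14 of 17 in srx and 5 of 6 in srv stood above background on all 8 arrays.

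**Figure D1:**
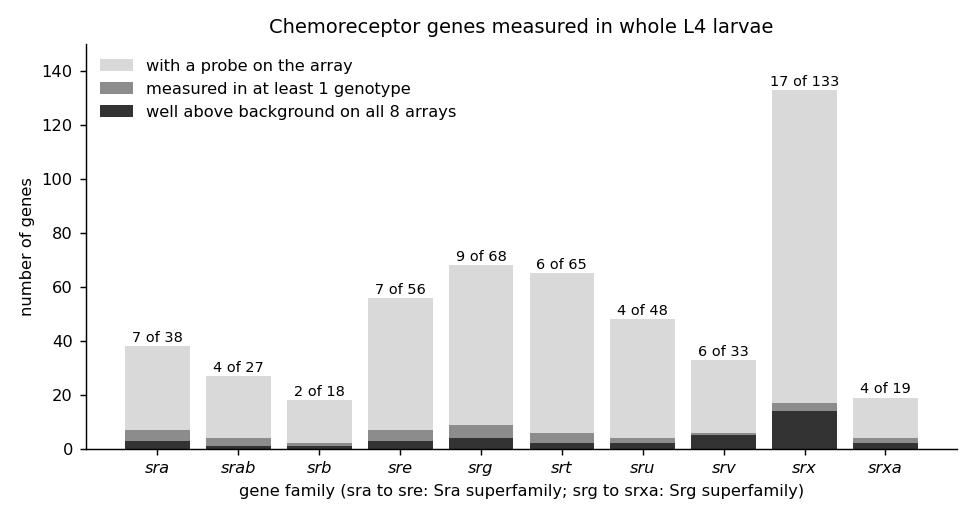
Bars give the number of genes of each family (vertical axis) with a probe on the array in light gray, measured in at least 1 genotype in mid gray, and well above background on all 8 arrays in black; the tiers are drawn over one another, not stacked. In each family the measured genes are a small part, from 4 of 48 in sru to 4 of 19 in srxa.

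The number of these genes above background varied between arrays of a single genotype. It ran from 72 on replicate 1 to 157 on replicate 2 in N2, and was 142, 62, 89 and 64 on the mutant replicates 1 to 4. The genotypes overlapped, with mutant replicates 2 and 4 lowest and N2 replicate 1 next. Of the 77 probes that met the rule, 45 did so on all 8 arrays, 25 on all N2 arrays but not all mutant arrays and 7 the other way round. The probes of the second kind were 32.5% of those of these genes and 2.01% of all tested probes, and those of the third kind 9.09% and 3.26%. These shares are a description and have no test. The 32 probes just inside the rule, with all arrays of only 1 genotype, had a median level of -5.92 (-6.57 to -4.74). The 32 probes just outside it, with at most 3 arrays of either genotype, had a median of -6.10 (-6.92 to -4.96).

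Receptors with a published cell or function were mostly out of reach. Of 24 such genes, all with a probe, 2 were measured, 5 were well above background on some arrays and 17 on none. The 17 include srg-36's partner srg-37, a receptor for dauer pheromone, srx-43 and srx-44, receptors for a pheromone that alters foraging, and srb-6, sra-9, sre-1, srg-2 and srg-8, whose reporters mark particular sensory neurons. srg-36, also a dauer pheromone receptor, was well above background on 1 array of each genotype. sra-6, the common marker of the nociceptive neuron ASH, was seen on 1 mutant array, sra-7 on 2 arrays of each genotype, sra-13, a regulator of odor responses, on 1 N2 array. sra-11, made in the interneuron AIY, was seen on 3 N2 arrays and 0 mutant arrays, and no difference is drawn from arrays below the rule. The measured pair is sra-10 and srb-16, the latter of a group of srb genes linked to sperm guidance.

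The comparison of aptf-1(gk794) with N2 asks which genes depend on aptf-1. No gene of the 66 passed the test between the genotypes. At an adjusted p under 0.05 with a change of at least 1.5-fold, the study's fold threshold, 0 of 66 were called in limma, against 0.0928% of the 18313 genes and unnamed targets tested, or 0.0601% counting lower ones alone. Of their 77 tested probes, each fitted by itself, 0 were called (0.0594% of all probes). At an unadjusted p under 0.05, 10 of the 66 had a lower and 1 a higher mutant level, where 7.76% and 4.48% of all genes did. A gene high in only 1 genotype could pass the rule, so these counts are not read as a result. Among the 37 genes well above background on all 8 arrays, 3 had an unadjusted p under 0.05 in either direction. The smallest adjusted p among the members was 0.178.

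The differences of the single genes leaned to the lower side. The mutant minus N2 log2 difference was below 0 in 54 of 66 measured genes, with a median of -0.57, and in 54.7% of all genes, with a median of -0.03. At least 1.5-fold lower were 33 of the 66 (3.70% of all genes), and at least 1.5-fold higher were 2, sre-4 and srx-96 (4.73% of all genes). Because a gene that was high only in N2 could pass the rule, these counts do not stand for the 505 genes. Among genes well above background on all 8 arrays, 29 of 37 were below 0 with a median of -0.31, against 55.1% and -0.03 of all genes so chosen. With no limit on brightness, 397 of 505 were below 0 with a median of -0.18, where 58.8% of all genes were, but most of these values lie near background. Under another background correction (normexp) the median of the 66 was -0.10, and 53 of 66 were still below 0. Normexp adds an offset to the signal, which by itself makes log2 differences of dim probes smaller. Without the mutant replicates 2 and 4 the median was -0.14, where 86 genes met the rule and 53 of these were below 0. With slide and position in the fit, position as a linear term, the median of the 66 turned to 0.23, with 25 of 66 below 0. The genotypes share no position, so that value rests on extending a linear trend.

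**Figure D2:**
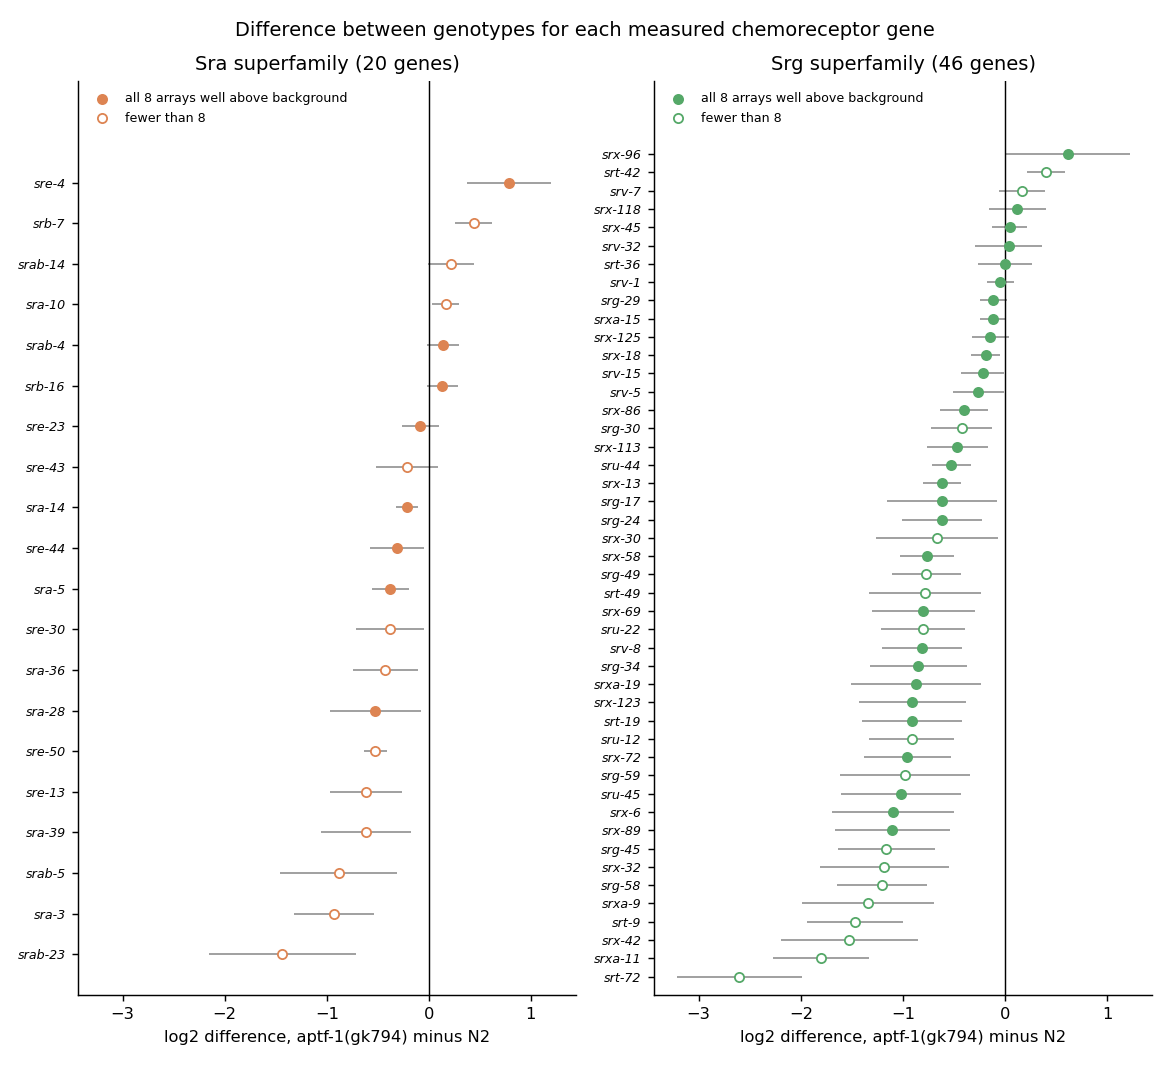
Each point is the log2 difference of 1 measured gene, mutant minus N2 (horizontal axis), with its standard error as a bar, for the Sra superfamily at left and the Srg superfamily at right. Filled points mark genes seen above background on all 8 arrays; 14 of 20 Sra genes and 40 of 46 Srg genes lie below 0.

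The Sra superfamily had 14 of 20 measured genes below 0 with a median of -0.35, and the Srg superfamily 40 of 46 with a median of -0.77. Over genes seen on all 8 arrays the medians were -0.01 (4 of 8 below 0) and -0.53 (25 of 29). The difference between the superfamilies was not tested. By family, the median was -0.42 in sra, -0.37 in srab, 0.29 in srb, -0.31 in sre, -0.77 in srg, -0.85 in srt, -0.86 in sru, -0.13 in srv, -0.66 in srx and -1.10 in srxa. In srg, sru and srxa every measured gene was below 0, 9, 4 and 4 genes, and in srb neither of 2. Over genes seen on all 8 arrays the sign turned in srab (0.14, 1 gene) and sre (0.21, 3 genes), and the median was -0.21 in sra, 0.13 in srb, -0.62 in srg, -0.46 in srt, -0.77 in sru, -0.22 in srv, -0.54 in srx and -0.46 in srxa.

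In the Sra superfamily, sra-10 had levels of -6.01, -5.68, -5.56 and -5.66 on the N2 arrays and -5.66, -5.40, -5.77 and -5.42 on the mutant arrays, replicates 1 to 4. The genotypes overlapped, and the difference was 0.17 (SE 0.13; adjusted p = 0.589 in limma), with 3 of 4 N2 arrays above background. srb-16 read -4.39, -4.04, -4.06 and -4.61 in N2 and -4.21, -4.02, -4.30 and -4.02 in the mutant. It too overlapped, at 0.13 (SE 0.15; adjusted p = 0.692 in limma). For both genes the difference was smaller than the spread between the N2 arrays.

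sre-50 had the smallest p of the 66. Its levels were -5.72, -5.80, -5.93 and -5.81 in N2 and -6.16, -6.51, -6.51 and -6.17 in the mutant, where 3 of 4 arrays were above background. All mutant arrays lay below all N2 arrays, and the difference was -0.52 (SE 0.11; adjusted p = 0.178 in limma). The slides gave -0.51 and -0.53, and normexp gave -0.06. sre-4 went the other way, at -4.52, -4.82, -5.24 and -5.04 in N2 and -4.75, -3.03, -4.94 and -3.75 in the mutant. Only replicates 2 and 4 of the mutant stood above N2, and the difference of 0.79 (SE 0.41; adjusted p = 0.464 in limma) was 0.06 without them.

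Among the other Sra genes chosen for the brightest probe of their family, sra-28 had 2 probes, with differences of -0.88 and -0.16. Its levels were -4.55, -3.63, -3.69 and -3.41 in N2 and -3.32, -5.22, -3.90 and -4.93 in the mutant, again low on replicates 2 and 4. The difference was -0.52 (SE 0.44; adjusted p = 0.611 in limma) and 0.19 without those arrays. srab-14 differed by 0.22 (SE 0.23; adjusted p = 0.677 in limma) and overlapped, with N2 replicate 1 lowest at -5.57. It passed the rule through the mutant alone, with 3 of 4 N2 arrays above background. The gene with a higher mutant level at an unadjusted p under 0.05 was srb-7, a pseudogene named after its values were seen. Its mutant mean was -5.84 ± 0.33 (SD, n = 4) beside -6.28 ± 0.19 (SD, n = 4) for N2, a difference of 0.44 (SE 0.18; adjusted p = 0.388 in limma). srb-7 too passed through the mutant alone, with 3 of 4 N2 arrays above background.

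In the Srg superfamily, 2 genes had probes about as bright as the 75th percentile of the arrays. srv-1 read -0.09, 0.01, 0.14 and 0.07 in N2 and 0.29, 0.08, -0.26 and -0.15 in the mutant. The genotypes overlapped, and the difference was -0.04 (SE 0.13; adjusted p = 0.893 in limma), 97.0% of the N2 signal. srg-34 read -0.15, -0.03, -1.12 and 0.97 in N2 and -0.06, -1.10, -0.87 and -1.70 in the mutant. It spread over more than 2 log2 units within N2 alone, and its difference of -0.85 (SE 0.48; adjusted p = 0.480 in limma) was alike in its 2 probes, at -0.87 and -0.82. The slides disagreed on srg-34, with 0.059 for slide 1 and -1.75 for slide 2.

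The srx genes gave the most values clear of background. srx-58 had levels of -1.54, -2.0, -1.89 and -0.79 in N2 and -2.45, -2.58, -2.10 and -2.15 in the mutant. The genotypes did not overlap, and the difference was -0.77 (SE 0.27; adjusted p = 0.339 in limma), with -0.80 and -0.73 on the 2 slides, -0.72 without mutant replicates 2 and 4 and -0.55 with normexp. srx-13 had -3.23, -3.18, -3.45 and -3.04 in N2 and -3.50, -4.30, -3.57 and -3.99 in the mutant. It did not overlap either, at -0.61 (SE 0.19; adjusted p = 0.295 in limma), with -0.31 without mutant replicates 2 and 4 and -0.34 with normexp. Genotypes that did not overlap, mutant lower, were found in 5 of 66 genes (5.02% of all genes), and mutant higher in 0 of 66 (3.1% of all genes). srx-58 and srx-13 are those of the 5 that were above background on all 8 arrays.

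srx-123, a pseudogene with the brightest srx probe, read -0.38, -1.08, -1.03 and -1.31 in N2 and -0.75, -2.05, -1.26 and -3.36 in the mutant. Mutant replicates 2 and 4 were low and replicates 1 and 3 lay among the N2 arrays. The difference was -0.91 (SE 0.52; adjusted p = 0.488 in limma) and -0.06 without replicates 2 and 4. The srx genes that follow were named after their values were seen. srx-6 (-3.58 and -4.59), srx-69 (-2.11 and -3.67), srx-72 (-3.86 and -4.40) and srx-89 (-3.92 and -5.17) were also lowest on mutant replicates 2 and 4, in that order. Their differences, between -1.10 and -0.80, were between -0.20 and -0.03 without those arrays. As these genes were picked for low values on those arrays, the smaller differences follow from the choice. srx-69, srx-72 and srx-89 are annotated as pseudogenes. srx-96 stood opposite, with -2.38 and -2.98 on the same arrays against -4.79 and -4.89 on mutant replicates 1 and 3, and a difference of 0.61 that became -0.47 without them.

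srt-72, a pseudogene, had the lowest difference of the 66. It read -3.82, -1.81, -4.61 and -3.55 in N2 and -5.07, -5.85, -6.72 and -6.57 in the mutant, where 2 of 4 arrays were above background. All mutant arrays were below all N2 arrays, and the difference was -2.60 (SE 0.61; adjusted p = 0.206 in limma), with -1.25 for slide 1, -3.96 for slide 2 and -0.97 under normexp. srxa-11 read -5.35, -5.56, -4.80 and -5.83 in N2 and -6.75, -7.17, -6.26 and -8.56 in the mutant, with 1 of 4 mutant arrays above background. It did not overlap, at -1.80 (SE 0.47; adjusted p = 0.234 in limma), and at -0.24 with normexp. The sizes of both depend on mutant values near background.

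Of the remaining genes with the brightest probe of a family, sru-45 had -2.39, -3.05, -4.17 and -2.18 in N2 and -2.75, -4.29, -3.66 and -5.15 in the mutant. It overlapped, at -1.02 (SE 0.59; adjusted p = 0.489 in limma) and -0.26 without mutant replicates 2 and 4. srxa-19 ranged from -4.25 to -1.95 in N2 and from -5.13 to -2.49 in the mutant, a difference of -0.87 (SE 0.64; adjusted p = 0.561 in limma). It was -0.34 without mutant replicates 2 and 4, and -1.34 without mutant replicate 3, -0.46 without mutant replicate 2 and -0.50 without N2 replicate 4. srt-36 had means of -4.18 in both genotypes, with an SE of the difference of 0.27.

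**Figure D3:**
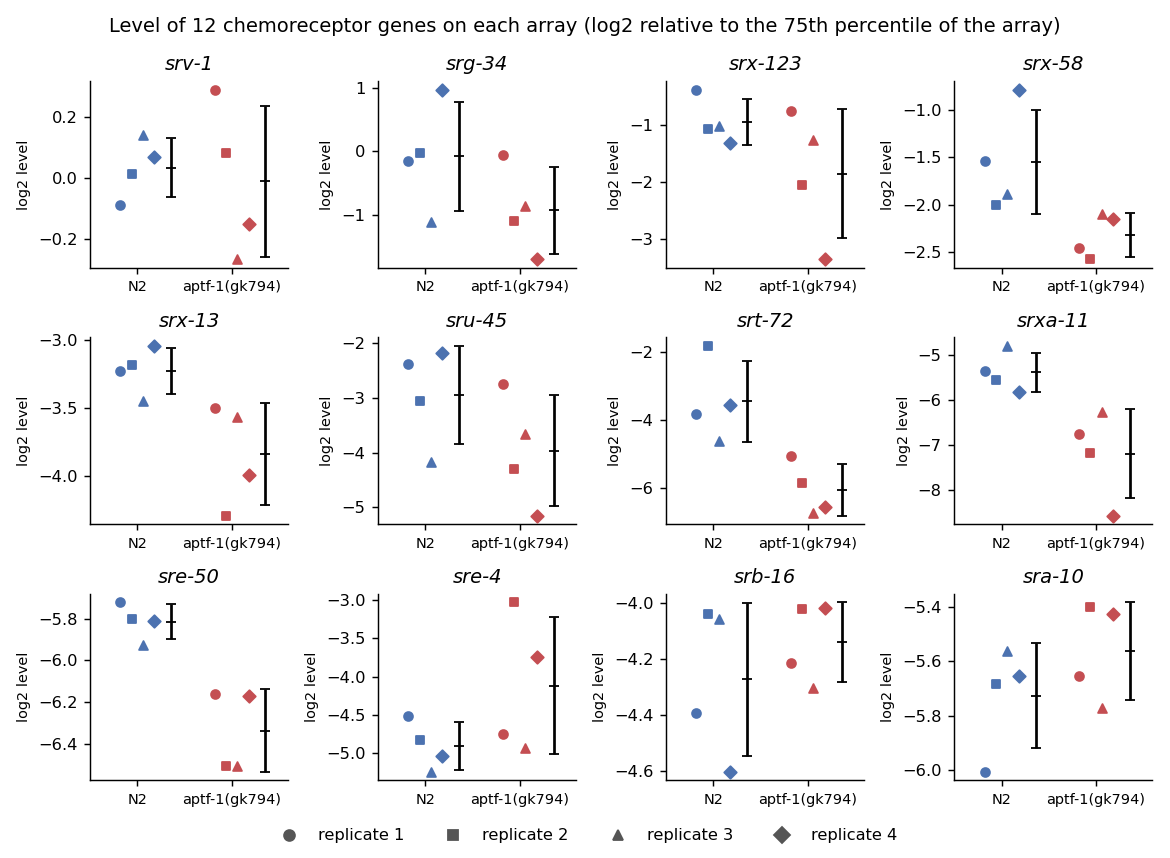
Each panel gives the log2 level of 1 gene (vertical axis, relative to the 75th percentile of the array; scales differ) on the 4 N2 arrays in blue and the 4 mutant arrays in red, with the replicate as the symbol and the mean and SD as the bar at right. srx-58, srx-13, srt-72, srxa-11 and sre-50 do not overlap, and in srx-123 and sru-45 the mutant replicates 2 (squares) and 4 (diamonds) are lowest.

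The receptors as a group stood high on some arrays and low on others. For each array, the median over the 66 genes of the deviation from the gene mean was 0.42, 0.36, -0.01 and 0.18 on the N2 replicates 1 to 4 and 0.09, -0.37, -0.11 and -0.39 on the mutant replicates 1 to 4. The genotypes overlapped, N2 replicate 3 lying below mutant replicate 1, and mutant replicates 2 and 4 were the 2 lowest. Over all genes the same median stayed between -0.04 and 0.03. Over the receptors seen on all 8 arrays it was 0.33, 0.32, -0.01 and 0.11 on the N2 arrays. On the mutant arrays these receptors had -0.01, -0.25, -0.14 and -0.20. Mutant replicate 4 held the lowest level in 23 of the 66 genes and replicate 2 in 13, together 36, where the lowest array of all genes was one of these in 29.5%. By superfamily it was 6 of 20 Sra and 30 of 46 Srg genes. Genes that passed the rule through N2 alone could be near background on mutant arrays, so these counts are not read as a result. N2 replicate 1 held the highest level in 22 of the 66 genes. Within each genotype the receptor median was lower at the later position of the slides. In N2 it was 0.42 and 0.36 at position 1 and -0.01 and 0.18 at position 2. In the mutant it was 0.09 and -0.11 at position 3 and -0.37 and -0.39 at position 4. The arrays at position 4, mutant replicates 2 and 4, had 75th percentiles among the lowest, at 431 and 544. N2 replicate 1 was dimmer at 316 and had the highest receptor median. The part of position or brightness in the differences was not tested.

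**Figure D4:**
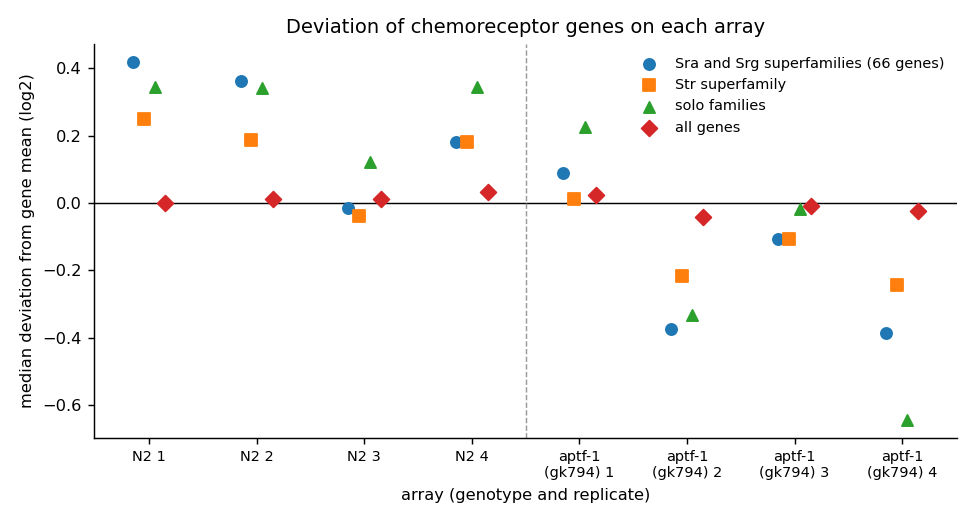
For each array (horizontal axis), symbols give the median deviation of genes from their mean over the 8 arrays, in log2 units, for the 66 receptor genes, the Str superfamily, the solo families and all genes. The 66 genes run from 0.42 on N2 replicate 1 to -0.39 on aptf-1(gk794) replicate 4, while all genes stay near 0.

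The spread between arrays of a genotype was wide for these genes. The median SD over the 66 was 0.44 in N2 and 0.60 in the mutant, against 0.18 and 0.19 over all genes. Genes that passed the rule through N2 alone could be near background on mutant arrays. Over the 37 receptors seen on all 8 arrays the median SD was 0.40 in N2 and 0.37 in the mutant. At levels from -7 to -4 the median SD was 0.33 and 0.36 over all genes and 0.45 and 0.53 over the 52 receptors in that range. Among the dimmest receptors the rule itself weighs on the differences. Of 14 receptors at levels from -7 to -6, 10 passed through N2 alone, 3 through the mutant alone and 1 on all 8 arrays, and of 21 from -6 to -5 it was 11, 3 and 7, so no median is read there. At levels from -5 to -4, 15 of 17 receptors were seen on all 8 arrays, 10 of them below 0, with a median of -0.14, where that of all genes was -0.04. Above -4, each of the 14 receptors was seen on all 8 arrays, and all 14 were below 0 with a median of -0.83. All 14 were Srg genes. Without mutant replicates 2 and 4 their differences ran from -0.72 in srx-58 to -0.02 in srv-1. Of all genes, 53%, 55% and 52% were below 0 at levels from -4 to -3, -3 to -2 and -2 to 1. With slide and linear position in the fit the median over all 66 receptors turned to 0.23. In that fit the 14 receptors above -4 ran from -1.10 in srx-58 to 1.63 in srx-6.

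**Figure D5:**
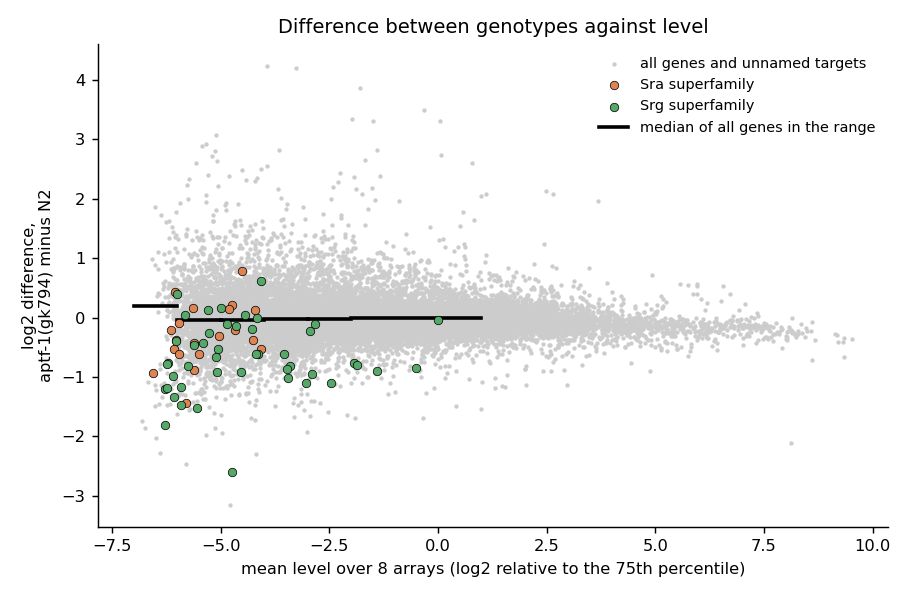
Each dot is 1 gene, with its mean level over 8 arrays on the horizontal axis and its log2 difference, mutant minus N2, on the vertical axis; all genes are gray, Sra receptors orange and Srg receptors green, and black lines mark the median of all genes within a range of levels. Receptors lie mostly below the line; at levels under -5 most of them passed the rule through 1 genotype alone.

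Annotation and position in the genome were not used to choose members. Of the 11 measured pseudogenes 10 were below 0 with a median of -0.88, and of the 55 protein-coding genes 44 with a median of -0.47. Seen on all 8 arrays were 5 pseudogenes, with a median of -0.91, and 32 protein-coding genes, with a median of -0.22. Without mutant replicates 2 and 4 the order turned, with medians of -0.18 over the 11 pseudogenes and -0.26 over the 55 protein-coding genes. By chromosome, 32 of 35 measured genes on V were below 0 with a median of -0.85, 12 of 16 on II with a median of -0.38, 5 of 7 on IV, 3 of 4 on X, 1 of 3 on III and the only gene on I. Over genes seen on all 8 arrays the median was -0.77 on V (19 of 21 below 0), -0.26 on II (6 of 8) and -0.09 on IV (2 of 4). aptf-1 itself lies on chromosome II. 2 pairs of measured genes are direct neighbors on chromosome V, srx-42 and srxa-11 (-1.52 and -1.80) and srx-72 and srx-86 (-0.96 and -0.40). Since 32 of 35 measured genes on V were below 0, the shared sign within pairs is not read as a result. srx-42 and srxa-11 also passed the rule through N2 alone. Where a gene had several tested probes, they had the same sign in 5 of 8 genes and differed in sre-23, srt-36 and srx-125. Probe sequences were not analysed here, so signal shared between near-identical family members or with a pseudogene cannot be told apart.

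The other chemoreceptor families also had medians below 0. The Str superfamily (srd, srh, sri, srj and str) had 69 of 691 genes measured, 59 below 0, with a median of -0.36, and the solo families (srbc, srsx, srw, srz and srr) 33 of 373, 26 below 0, with a median of -0.67. Over genes seen on all 8 arrays, 40 of 47 Str genes were below 0 with a median of -0.30, and 10 of 17 solo genes with a median of -0.13, beside 55.1% of all genes. Neither had a gene called. On mutant replicate 4 their median deviations were -0.24 and -0.64, beside -0.39 for the Sra and Srg genes.

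Genes of the cells that hold the receptors had medians near 0. Of 38 genes of the cilium and ciliary transport 34 were tested, 17 below and 17 above 0, with a median difference of 0.01, and of 19 genes of all neurons 8 were below and 11 above, with a median of 0.01. No gene of either list was called. The summed level of the cilium genes, as multiples of the 75th percentile, was 2.49 to 3.08 in N2 and 2.43 to 2.79 in the mutant. That of the neuronal genes was 16.6 to 18.3 and 17.3 to 20.01, so that both overlapped.

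Of 37 genes for transduction, trafficking and activity-dependent control of chemoreceptors 23 were tested, 15 below 0, with a median of -0.06 and 0 called. At an unadjusted p under 0.05, 5 of the 23 had lower mutant levels, where 7.76% of all genes did. They are gcy-28, a guanylate cyclase (-0.39), the channel subunits osm-9 (-0.62) and ocr-2 (-0.49), and mef-2 (-0.30) and hda-4 (-0.54), a transcription factor and a histone deacetylase that act in the control of chemoreceptor expression. Their smallest adjusted p was 0.232 in limma. The summed level of the list was 12.1 to 14.8 in N2 and 10.8 to 12 in the mutant, without overlap. Much of that sum is ocr-2, at 3.06 to 5.81 in N2 and 2.32 to 3.12 in the mutant. Without it the sum was 8.68 to 9.12 and 7.91 to 8.89, and the genotypes overlapped. tax-2, tax-4, odr-1, daf-11, odr-3 and several other G alpha genes did not meet the rule. Of 24 transcription factors of sensory neuron identity 19 were tested, 10 below 0, with a median of -0.02 and 0 called.

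Markers of other tissues were set beside these values. Intestinal genes (6 of 6 tested) had a median of -0.27, and their summed level was 242 to 303 in N2 and 190 to 219 in the mutant, without overlap. Most of that sum is asp-1, with mean log2 levels of 7.66 in N2 and 7.31 in the mutant, so it says little about the other genes. At an unadjusted p under 0.05, 3 of the 6 had lower mutant levels, act-5 (-0.55), elt-2 (-0.36) and asp-1 (-0.35), with a smallest adjusted p of 0.134 in limma. Hypodermal genes (4 of 6) went both ways around a median of -0.20, with elt-3 at -0.44 and the collagen gene rol-6 at 2.05, each at an unadjusted p under 0.05. The median was -0.14 in body wall muscle (6 of 6), -0.05 in sperm (5 of 8), 0.05 in glia of the sense organs (5 of 7), 0.06 in the pharynx (6 of 6) and 0.08 in the germline (6 of 6). No marker was called, and the part of tissue makeup in the receptor values was not tested.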

How the data were processed

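Scanner output of every array was deposited, from Agilent Feature Extraction per the labels. The deposited values used are processed spot intensities on a linear scale, with background subtracted but no scaling between arrays. Groups came from the labels, and slide and position from the deposited files. The study's methods call the 4 samples of a genotype biological samples. Members and gene lists were chosen with earlier results of these data known.

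Control spots and 18 to 62 outlier spots per array were left out. Spots of a probe were averaged as log2 intensity, and the 75th percentile of each array was subtracted. A probe was tested where well above background on every array of N2, of the mutant or of both, and a gene took the mean of its tested probes. A linear model per gene (genotype only, moderated and two-sided; limma 3.58.1 under R 4.3.3) gave p-values, adjusted by Benjamini-Hochberg over 18313 genes and unnamed targets. Called means an adjusted p under 0.05 and a change of at least 1.5-fold. Summed levels are sums of 2 to the power of the log2 level. The number of arrays limits the precision.

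Probes were named through NCBI genes of the assembly WBcel235: 34263 of 43603 (78.6%) matched 19791 genes. Coordinates are left out because the array design uses an older build. Sequences of probes, proteins and promoters were not used here, and a planned motif search in promoters was not run.

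Genes named in the text were the brightest measured gene of each family, up to 8 with the smallest p in each direction among those whose genotypes did not overlap, and 24 with a published cell or function. Others are said to be named after their values were seen. Called genes were to be named too, as were genes above background in only 1 genotype, but none met that.

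In simulated data (18267 genes, 200 changed) 70% of changes of 1.2 and 88% of changes of 2 on the log2 scale were recovered, 7 unchanged genes were called, and 0 without any change. The changed genes were drawn from all genes, whose median SD between arrays was 0.18 in N2 and 0.19 in the mutant. The median SD of the 66 receptors was 0.44 and 0.60, so the recovered shares do not stand for the receptors. The table of processed intensities the authors also deposited, with equal percentiles on all arrays, served as an alternative. Other alternatives were median and quantile scaling, and normexp (offset 50, on median spot signal and median local background, then quantile scaling). Further ones were other filters, slide or replicate number as a block, slide with position as a linear term, and each slide alone. The last were other probe summaries, array weights, a trend, other thresholds and leaving out arrays. Tables and plots were made in Python 3.11.15 (pandas 2.3.3, numpy 2.4.6, matplotlib 3.10.9).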

Additional observations from a re-analysis of the deposited data

Results flagged for a closer look

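Arrays far from the other 3 of their genotype were sought in 36 groups (array measures and named genes) by Dixon's ratio, the distance of the outermost value to its neighbor over the full range. 1 group exceeded Dixon's critical value, and about 1.8 are due by chance. It was srab-14 in N2, whose level of -5.57 on replicate 1 left a gap of 0.868 of the range to the other N2 arrays. Without that array the difference between the genotypes was -0.025 in place of 0.22.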

How the results depend on the processing

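0 of the member genes were called under each alternative of normalization, filter, block, test or omitted array; with an unadjusted p under 0.05 and no fold limit 11 were. Over all genes 17 were called, and 7 with median scaling, 11 each with quantile scaling, the deposited values and the median of probes, 2 without a filter, 38 with array weights, 2242 by unadjusted p, 2 to 5 without 1 array each, and 0 with slide and position, each slide alone, or without mutant replicates 2 and 4. Among genes above background on all 8 arrays it was 9 with normexp and 0 on each slide alone or without mutant replicates 2 and 4, alternatives added after seeing the data. The numbers shared by samples of both genotypes carry no stated pairing, and deviations of same-numbered samples correlated at -0.11, 0.24, 0.06 and 0.20, with 1 of 4 numbers closest to its own partner. With the replicate number as a block 0 genes were called, members included.

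The member median of -0.57 was -0.10 with normexp, where 80.3% of members were below 0, -0.24 on slide 1 alone and -0.70 on slide 2 alone. Without a filter it was -0.18 over 505 genes. Where arrays were left out the rule was applied again. It was -0.64 to -0.39 without 1 array each, over 66 to 88 genes. Without mutant replicates 2 and 4 it was -0.14 over 86 genes, and -0.21 over the 66 measured genes. The member median was -0.31 over genes above background on all 8 arrays. For these it was -0.10 with normexp, -0.20 on slide 1 alone and -0.18 without mutant replicates 2 and 4. With slide and position it turned to 0.23, with 37.9% of members below 0. The genotypes share no position, so this fit extends a linear trend across positions, and the cause was not tested.

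Of the 16 named genes 5 kept their sign throughout. With slide and position the difference turned to -0.37 in sra-10, 0.40 in sra-28, -0.39 in srab-14, -0.19 in sre-4, 0.078 in srg-34, 0.42 in srt-36, 0.96 in sru-45, 1.23 in srx-123, 0.037 in srx-13 and 0.28 in srxa-19. Without mutant replicates 2 and 4 it was 0.19 in sra-28 and 0.16 in srt-36. On slide 1 alone it was 0.059 in srg-34, 0.057 in srt-36 and 0.16 in srv-1, and on slide 2 alone -0.12 in srab-14. sra-10 had -0.027 with normexp, srab-14 -0.31 without a filter and srt-36 0.034 with array weights. Without 1 array each, srab-14 ranged from -0.025 to 0.32, srt-36 from -0.17 to 0.14 and srv-1 from -0.14 to 0.041. Low signal over background limits most of these genes.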
